A study of Rattus norvegicus with 6 samples.

Results

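Heart RNA of rats given ISO was examined for 10 genes of the inflammasome, of lytic cell death and of the interleukin-1 family. They are Nlrp3, Pycard, Casp1, Gsdmd, Il1b, Il18, Il33, Il1rl1, Ripk3 and Mlkl. Each was taken as the row whose gene name equals the symbol. All 10 of 10 symbols matched 1 row each, among 32883 rows with a gene name.

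The ISO animals were wild-type male Sprague–Dawley rats, an outbred strain, aged 8 weeks and weighing 250 to 300.0 g, given daily subcutaneous doses of 1.5 mg/kg ISO over 7 days. The labels do not spell ISO out, and it is taken here to be isoproterenol, a beta-adrenergic agonist. The saline animals were rats of the same strain, sex, age and weight that received an equal volume of saline for 7 days. Each group had 3 rats with 1 library each, and the model is meant to produce myocardial hypertrophy and fibrosis.

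An inflammasome is a protein platform that forms in the cytosol when a sensor such as NLRP3 detects damage. The adaptor ASC, encoded by Pycard, joins the sensor to caspase-1, which then cleaves the precursors of interleukin-1 beta and interleukin-18 and cuts gasdermin D, whose freed end opens pores in the cell membrane and kills the cell by pyroptosis. Interleukin-33 is another member of the family, an alarmin stored in nuclei and released from damaged cells, and acts through the receptor ST2, encoded by Il1rl1. RIPK3 and MLKL carry out necroptosis, a separate form of lytic death in which RIPK3 phosphorylates MLKL. Most of these steps are controlled by cleavage, phosphorylation or release of protein, which RNA levels do not show.

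Between 14712798 and 17070878 counts of named genes were available per library. The libraries separated by treatment on the first principal component, which held 40.7% of the variance of the log2-transformed levels. ISO replicate 2 lay nearest to saline on it and ISO replicate 3 farthest. Cardiomyocyte markers, the check of the heart label, were abundant, with a summed level of 37520 to 56400 CPM (read counts scaled to library size by the TMM method) in ISO and 54630 to 67060 in saline. Of 8 atrial markers, Myl7, Myl4, Sln, Bmp10 and Mybphl stood far higher in ISO replicate 1 than in any other library, with Myl7, the atrial myosin light chain, at 70.7 CPM, against 0 to 1.06 in the other ISO libraries and 0.613 to 1.56 in saline. Changes are given as log2 of the ratio of ISO to saline, from edgeR's quasi-likelihood test, and a gene was called at a Benjamini-Hochberg adjusted p under 0.05 over all 13766 genes tested.

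Of the 10 genes, all of which passed the filter on low counts, Gsdmd was higher in ISO and the other 9 were not called. The called share over all genes was 2.97%, or 1.47% higher and 1.50% lower. The fitted log2 fold change was above 0 for 9 genes and below 0 for Casp1, and its median over the 10 was 0.40, against 0.02 over all genes tested. ISO and saline libraries did not overlap for Gsdmd and Il18, both higher in ISO, or 2 of 10, where 14.1% of all genes lay wholly higher and 14.6% wholly lower. The series' own rule, a DESeq2 p under 0.05 without adjustment and an absolute log2 fold change over 0.5, took 3 of 10 (Gsdmd, Nlrp3 and Il18), all higher in ISO, where it took 8.82% of all genes as higher and 4.53% as lower. DESeq2 with adjustment called Gsdmd alone, where it called 10.2% of all genes, 5.46% as higher and 4.74% as lower. At an unadjusted edgeR p under 0.05, Gsdmd and Il18 passed, as did 22.9% of all genes, 12% higher and 10.9% lower.

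**Figure D1:**
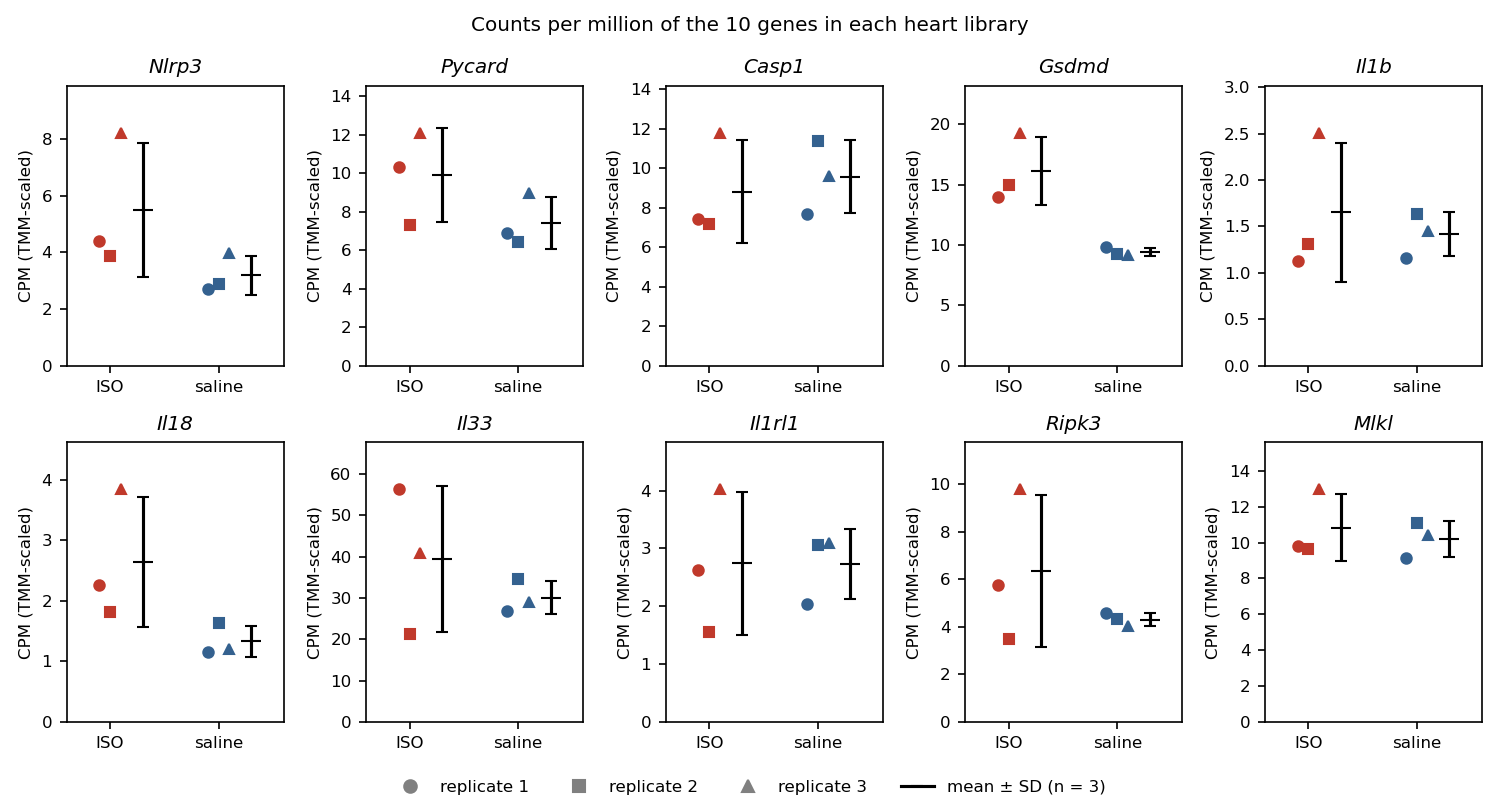
CPM (y axis, TMM-scaled) of the 10 genes in each heart library, ISO on the left of each panel and saline on the right, with symbols for replicates and bars for mean ± SD (n = 3). Gsdmd and Il18 are the genes whose ISO libraries all lie above the saline libraries, and in 9 of the 10 panels the highest ISO point is replicate 3.

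Gsdmd (ENSRNOG00000007728), the gene of the pore-forming executor of pyroptosis, stood at 14.0, 15.0 and 19.3 CPM in ISO replicates 1 to 3, against 9.81, 9.25 and 9.16 CPM in saline replicates 1 to 3. Every ISO library lay above every saline library, and the saline libraries differed among themselves by no more than 1.07-fold. The means were 16.1 ± 2.78 CPM in ISO and 9.41 ± 0.35 CPM in saline (SD, n = 3 each), a 1.71-fold rise or a log2 change of 0.77 (SE 0.17, 95% interval 0.40 to 1.15, edgeR adjusted p = 0.0494). DESeq2 gave the same fold change with an adjusted p of 0.00436. The edgeR call lay close to its threshold. It was lost without ISO replicate 1 (0.86, edgeR adjusted p = 0.0945), without ISO replicate 3 (0.63, edgeR adjusted p = 0.0862), and without saline replicate 1, 2 or 3 (0.80, 0.76 and 0.75, edgeR adjusted p = 0.13, 0.136 and 0.18). Only without ISO replicate 2 was it kept among these 6 fits, at 0.82 (edgeR adjusted p = 0.0487). The limma voom fit gave 0.76 with an adjusted p of 0.0579.

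The levels of Gsdmd across the 6 libraries were most like those of Mettl26, Col6a2, a chain of collagen VI, and Anks3. Their log2 profiles, centred on the mean of the libraries, lay 0.0477, 0.0582 and 0.0638 away from that of Gsdmd by root mean square, the smallest distances among 11968 genes compared. Col6a2 stood at 385, 443 and 535 CPM in ISO replicates 1 to 3 and at 262, 269 and 272 CPM in saline replicates 1 to 3. This likeness rests on 6 libraries.

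The sensor gene Nlrp3, the protease gene Casp1 and its cytokine substrates Il1b and Il18 form 1 chain, and the bases before their annotated starts are shown because their fitted log2 changes ran from −0.12 for Casp1 to 0.99 for Il18. The sequences come from RefSeq on the build GRCr8 and cover 250.0 bases upstream of the start, read 5′ to 3′ on the gene's strand, with motif matches in capitals.
Nlrp3, chr10:44827848-44828097, plus strand: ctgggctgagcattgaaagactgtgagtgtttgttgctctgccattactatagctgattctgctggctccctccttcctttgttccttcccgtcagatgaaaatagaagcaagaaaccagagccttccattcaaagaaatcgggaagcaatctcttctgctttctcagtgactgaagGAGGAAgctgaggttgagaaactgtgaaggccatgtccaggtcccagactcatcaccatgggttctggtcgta
Casp1, chr8:10872580-10872829, plus strand: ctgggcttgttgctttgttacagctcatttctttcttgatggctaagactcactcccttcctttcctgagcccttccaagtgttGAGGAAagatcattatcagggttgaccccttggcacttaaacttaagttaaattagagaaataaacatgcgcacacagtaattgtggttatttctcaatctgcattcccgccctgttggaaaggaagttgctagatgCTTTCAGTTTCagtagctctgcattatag
Il1b, chr3:137036582-137036831, minus strand: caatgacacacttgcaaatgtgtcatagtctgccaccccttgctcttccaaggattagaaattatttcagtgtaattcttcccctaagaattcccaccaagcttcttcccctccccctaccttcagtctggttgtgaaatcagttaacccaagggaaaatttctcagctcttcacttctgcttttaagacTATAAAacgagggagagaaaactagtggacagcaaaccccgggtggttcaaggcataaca
Il18, chr8:59801822-59802071, plus strand: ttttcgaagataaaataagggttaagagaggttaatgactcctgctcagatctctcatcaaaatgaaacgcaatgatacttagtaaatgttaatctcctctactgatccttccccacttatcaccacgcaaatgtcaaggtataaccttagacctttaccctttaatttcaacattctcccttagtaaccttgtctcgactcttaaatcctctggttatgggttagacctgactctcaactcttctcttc

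The core promoter box was searched on the forward strand as TATAAA. On both strands the search covered the AP-1 motif as TGANTCA, the PU.1 motif as GAGGAA, the box named CCAAT by its letters, and the consensus motifs of NF-kB and of the interferon-stimulated response element. The Nlrp3 window held 1 PU.1 match, beginning 73 bases before the start. The Casp1 window held 1 PU.1 match at 166 bases and 1 interferon-stimulated response element at 29 bases before the start. The Il1b window held 1 TATA box at 60 bases before the start, and the Il18 window held none of these motifs. Among 33469 RefSeq windows of this length, 23.3% held a PU.1 match, 3.24% an interferon-stimulated response element, 8.06% a TATA box, 6.34% an AP-1 match, 34% a CCAAT box and 3.54% an NF-kB match. These are matches of letters and show no binding. The table held windows for 9 of the 10 genes, not for Gsdmd.

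Nlrp3 (ENSRNOG00000003170), the sensor, stood at 4.39, 3.87 and 8.23 CPM in ISO replicates 1 to 3, against 2.72, 2.88 and 3.98 CPM in saline replicates 1 to 3. The groups overlapped by a narrow margin, since ISO replicate 2 lay below saline replicate 3, and ISO replicate 3 stood well above the other ISO libraries. Its fitted log2 fold change was 0.78 (SE 0.34, edgeR adjusted p = 0.22), as large as that of Gsdmd with 2 times its standard error, and it was 0.37 (SE 0.30) without ISO replicate 3 and 0.98 (SE 0.34) without ISO replicate 2.

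Pycard (ENSRNOG00000019675), the adaptor, stood at 10.3, 7.3 and 12.1 CPM in ISO replicates 1 to 3, against 6.88, 6.44 and 8.97 CPM in saline replicates 1 to 3. ISO replicate 2 fell within the saline range and the other ISO libraries above it. Its log2 change was 0.41 (SE 0.23, edgeR adjusted p = 0.328). It was 0.25 (SE 0.24) without ISO replicate 3 and 0.59 (SE 0.21, edgeR adjusted p = 0.141) without ISO replicate 2.

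Casp1 (ENSRNOG00000007372), the protease that cleaves gasdermin D and both cytokine precursors, stood at 7.45, 7.17 and 11.8 CPM in ISO replicates 1 to 3, against 7.7, 11.4 and 9.6 CPM in saline replicates 1 to 3. Here 2 ISO libraries lay below all saline libraries and 1 lay above them. Fitted over all libraries, the log2 fold change was −0.12 (SE 0.25, edgeR adjusted p = 0.817), with a 95% interval from −0.68 to 0.45. In fold terms that interval ran from 0.622 to 1.36. Its sign was above 0, at 0.0027, without scaling.

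Il18 (ENSRNOG00000009848), one of the cytokines matured by caspase-1, stood at 2.26, 1.81 and 3.85 CPM in ISO replicates 1 to 3, against 1.16, 1.63 and 1.2 CPM in saline replicates 1 to 3, from 29 to 66 reads per ISO library and 17 to 26 per saline library. All ISO libraries lay above all saline libraries, ISO replicate 2 by the smallest margin. The log2 fold change was 0.99 (SE 0.38, 95% interval 0.11 to 1.87), and it was not called (edgeR unadjusted p = 0.032, adjusted p = 0.177). It was 0.61 (SE 0.39) without ISO replicate 3 and 1.19 (SE 0.39, edgeR adjusted p = 0.115) without ISO replicate 2. In RefSeq on GRCr8 the span of Il18 overlaps Bco2, a carotenoid-cleaving enzyme gene, and Tex12. Bco2 averaged 1.65 ± 0.737 CPM in ISO hearts, against 0.796 ± 0.033 CPM in saline hearts, a log2 change of 1.05 (SE 0.43, edgeR adjusted p = 0.193). No source used here says whether strand was used in counting, and without it any reads from a stretch shared by Il18 and Bco2 cannot be assigned. The same limit holds for the RefSeq spans of Nlrp3, Casp1 and Il33, which each overlap 1 locus known only by a LOC symbol, and for Ripk3. Whole gene spans were compared, and whether counted exons overlap was not checked.

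Il1b (ENSRNOG00000004649), the gene of the main fever-inducing cytokine of the family, stood at 1.13, 1.31 and 2.51 CPM in ISO replicates 1 to 3, against 1.16, 1.63 and 1.45 CPM in saline replicates 1 to 3, from 18 to 43 reads and from 17 to 26 reads. ISO replicate 3 lay above the saline libraries, replicate 1 just below them and replicate 2 among them. Between the groups the log2 change was 0.22 (SE 0.41, edgeR adjusted p = 0.787). Its 95% interval ran from −0.70 to 1.15, so neither a fall nor a rise of moderate size lies outside it. Without ISO replicate 3 the sign turned, to −0.21 (SE 0.41).

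Il33 (ENSRNOG00000016456), the alarmin, had the deepest read support of the 10 genes, with 340 to 900.0 reads per ISO library and 393 to 551 per saline library. It stood at 56.4, 21.2 and 40.9 CPM in ISO replicates 1 to 3, against 26.8, 34.5 and 29.0 CPM in saline replicates 1 to 3. The ISO libraries lay on both sides of the saline range, with replicates 1 and 3 above it and replicate 2 below it, and spanned 2.66-fold where saline spanned 1.29-fold. On the log2 scale the difference was 0.39 (SE 0.30, edgeR adjusted p = 0.479), and it was 0.04 (SE 0.26) without ISO replicate 1. Without ISO replicate 2 it was 0.69 (SE 0.17, edgeR adjusted p = 0.0615). Il33 was the gene of the 10 in which ISO replicate 1, not replicate 3, was the highest library. ISO replicate 1 also had the high atrial markers and the highest level of the endothelial gene Vwf, at 709 CPM. Of the other endothelial markers, Tie1 was highest there too, at 211 CPM, and Cdh5 and Kdr were lowest, at 217 and 110 CPM. Tek, Egfl7, Emcn and Erg lay within the range of the other libraries. The part of the atrial or endothelial markers in the Il33 values was not tested.

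Il1rl1 (ENSRNOG00000014835), the gene of the interleukin-33 receptor ST2, which is also made as a soluble decoy, stood at 2.63, 1.56 and 4.03 CPM in ISO replicates 1 to 3, against 2.04, 3.06 and 3.1 CPM in saline replicates 1 to 3. Again the ISO libraries lay above, within and below the saline range. The group means were 2.74 ± 1.24 CPM in ISO and 2.73 ± 0.598 CPM in saline (SD, n = 3 each), with a log2 change of 0.00 (SE 0.39, 95% interval −0.89 to 0.90, edgeR adjusted p = 0.997). Counts per gene do not separate the soluble from the membrane form.

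Ripk3 (ENSRNOG00000020465), the necroptosis kinase, stood at 5.76, 3.49 and 9.8 CPM in ISO replicates 1 to 3, against 4.56, 4.31 and 4.04 CPM in saline replicates 1 to 3. Saline libraries lay within 1.13-fold of each other, whereas the ISO libraries spanned 2.81-fold, from below the saline range to above it. Its log2 change was 0.56 (SE 0.35, edgeR adjusted p = 0.38). It was 0.11 (SE 0.29) without ISO replicate 3 and 0.85 (SE 0.27, edgeR adjusted p = 0.11) without ISO replicate 2. The RefSeq span of Ripk3 overlaps Nfatc4, a calcineurin-responsive transcription factor gene, which averaged 15.5 ± 2.4 CPM in ISO hearts, against 10 ± 1.71 CPM in saline hearts, a log2 change of 0.63 (SE 0.18, edgeR adjusted p = 0.0945).

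Mlkl (ENSRNOG00000042353), the membrane-permeabilising partner of RIPK3, stood at 9.84, 9.67 and 13.0 CPM in ISO replicates 1 to 3, against 9.13, 11.1 and 10.4 CPM in saline replicates 1 to 3. It varied little in either group, by 1.34-fold in ISO and 1.22-fold in saline. The fitted log2 change was 0.08 (SE 0.18, edgeR adjusted p = 0.82), and its 95% interval of −0.33 to 0.49 was among the narrowest of the 10 genes.

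**Figure D2:**
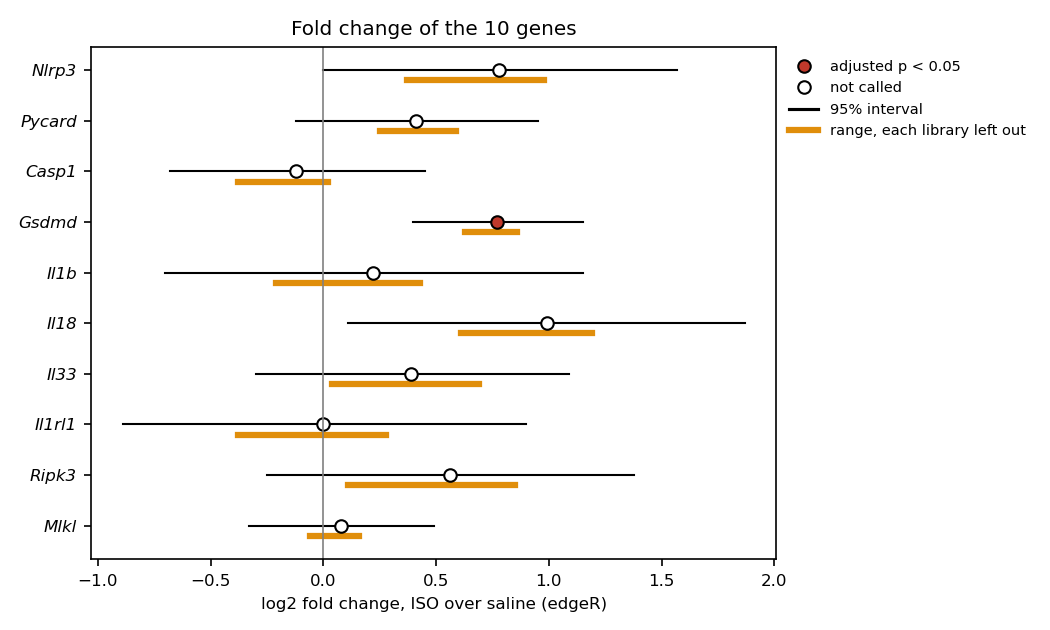
Log2 fold change of ISO over saline (x axis) for the 10 genes, with the 95% interval from edgeR as a line and the range over fits that each leave out 1 library as a thick bar. Gsdmd is the filled point, with an interval of 0.40 to 1.15, and the ranges of Casp1, Il1b, Il1rl1 and Mlkl cross 0.

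The ISO libraries differed among themselves more than the group means show. All 10 genes stood above the highest saline library in ISO replicate 3, as did 35.2% of all genes tested. The count was 6 of 10 in ISO replicate 1, where 33% of all genes did so, and 2 of 10 in ISO replicate 2, where 31.9% did. Relative to the saline mean of log2 CPM, the median over the 10 genes was 0.44, −0.08 and 0.75 in ISO replicates 1 to 3, against 0.01, 0.01 and 0.02 over all genes. Gsdmd, Il18 and Nlrp3 were the genes of the 10 that lay above that saline mean in every ISO library. Among them Gsdmd differed least from one ISO library to the next, at 0.57, 0.66 and 1.02. Il18 was at 0.73, 0.43 and 1.47 and Nlrp3 at 0.46, 0.29 and 1.35. Over all 10 genes, Mlkl varied less, by 1.34-fold between ISO libraries against 1.37-fold for Gsdmd.

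**Figure D3:**
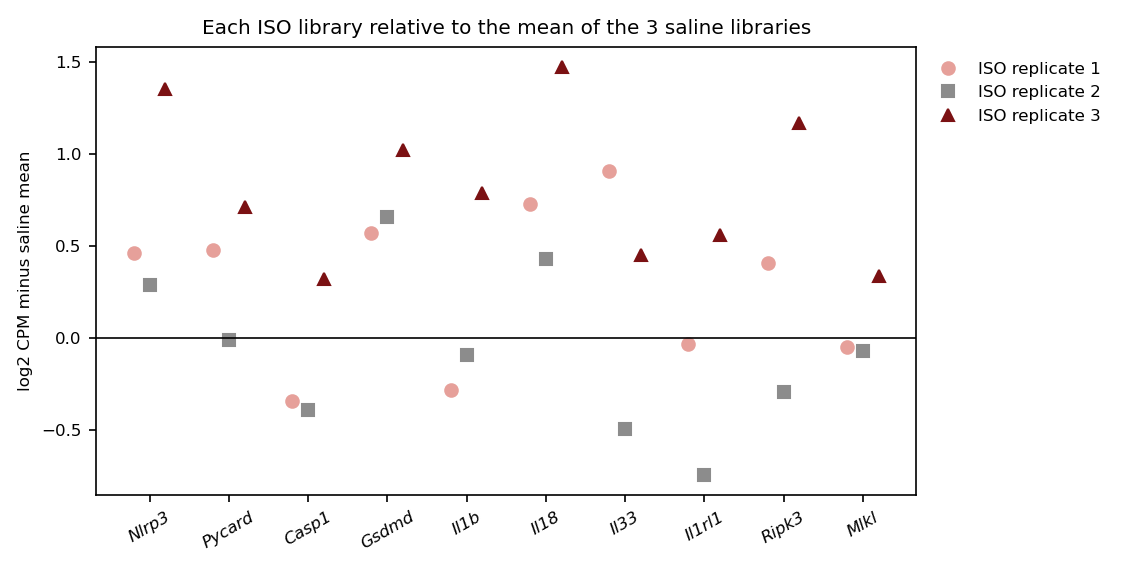
Log2 CPM of each ISO library minus the mean of the 3 saline libraries (y axis) for the 10 genes. Replicate 3 lies above 0 for every gene, and replicate 2 lies between −0.74 for Il1rl1 and 0.66 for Gsdmd.

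Ratios of 2 genes within a library do not depend on its scaling, and 5 pairs of functional partners were compared, chosen after the counts were seen. Reads of Casp1 per read of Gsdmd were 0.531, 0.479 and 0.612 in ISO replicates 1 to 3, against 0.785, 1.23 and 1.05 in saline replicates 1 to 3. Reads of Il1b per read of Il18 were 0.5, 0.724 and 0.652 in ISO, against 1, 1 and 1.21 in saline. Both ratios were lower in every ISO library than in any saline library, to 0.536 and 0.58 of the saline value. They are given as a description, since Gsdmd and Il18 are the genes already described as wholly higher in ISO. An exact permutation test gave p = 0.1 for each (adjusted p = 0.25 over 5 pairs). With 3 against 3 libraries no smaller unadjusted p can be reached, so that test could not decide. The ratios of Il33 to Il1rl1, Nlrp3 to Pycard and Ripk3 to Mlkl overlapped between the groups.

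Among other inflammasome sensors, adaptors and triggers, 1 of 14 tested genes was called higher, 1 lower and 12 were not called, with a median log2 fold change of 0.21, where 1.47% of all genes were called higher and 1.50% lower. The higher one was Txnip, the gene of thioredoxin-interacting protein, which restrains glucose uptake and has been described as a binding partner of NLRP3. Txnip stood at 1550, 1400 and 1290 CPM in ISO replicates 1 to 3, against 648, 518 and 801 CPM in saline replicates 1 to 3, a log2 change of 1.11 (SE 0.18, edgeR adjusted p = 0.0227). Its ISO libraries all lay well above the saline libraries, and replicate 3 was the lowest of them. Card9, an adaptor that links fungal-recognition receptors to NF-kB in myeloid cells, was the lower one. Card9 stood at 8.9, 11.2 and 15.6 CPM in ISO replicates 1 to 3, against 21.7, 33.5 and 34.6 CPM in saline replicates 1 to 3, a log2 change of −1.33 (SE 0.25, edgeR adjusted p = 0.033). Neither was called without ISO replicate 1 or without any 1 saline library, where Txnip ranged from 0.96 to 1.27 and Card9 from −1.52 to −1.17 (edgeR adjusted p of 0.0765 to 0.0995 and of 0.0619 to 0.148).

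None of the other sensors was called. Mefv, the gene of the sensor pyrin, stood at 1.69, 2 and 4.14 CPM in ISO replicates 1 to 3, against 1.63, 0.938 and 0.947 CPM in saline replicates 1 to 3. Its ISO libraries all lay above the saline libraries, replicate 1 by a narrow margin, with a log2 change of 1.16 (SE 0.45, edgeR unadjusted p = 0.0328, adjusted p = 0.179). Nlrp1a was at 0.08 (SE 0.28), Aim2 at 0.53 (SE 0.47) and Nlrc4 at 0.92 (SE 0.61), and Nlrp6 had no count in any library. Nek7, which binds NLRP3 during its assembly, averaged 32.7 CPM in ISO hearts, against 43.1 CPM in saline hearts, and was not called by edgeR (−0.40, SE 0.11, edgeR adjusted p = 0.0779), while DESeq2 called it lower (adjusted p = 0.0438). These genes and those below that were not called are named after their values were seen, other than the most abundant ones of each list.

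None of 8 tested caspases and membrane-rupture effectors was called by edgeR, while 2 were higher at an unadjusted p under 0.05, as were 12% of all genes, and the median was 0.53. DESeq2 called 2 of them, Ninj1 and Serpinb1a, both higher in ISO, where it called 5.46% of all genes higher. Ninj1, whose protein ruptures the plasma membrane after pore formation, stood at 60.1, 42.7 and 85.6 CPM in ISO replicates 1 to 3, against 33.0, 35.0 and 39.5 CPM in saline replicates 1 to 3. Its ISO libraries all lay above the saline ones, with a log2 change of 0.81 (SE 0.23, edgeR adjusted p = 0.0883, DESeq2 adjusted p = 0.0113). Serpinb1a, an inhibitor of neutrophil proteases, had a log2 change of 1.66 (SE 0.37, edgeR adjusted p = 0.053, DESeq2 adjusted p = 0.000442). Casp4, the rodent sensor caspase of intracellular lipopolysaccharide, was at 0.34 (SE 0.26), and Gsdme, the gasdermin cut by caspase-3, at 0.68 (SE 0.42). Gsdma and Gsdmc did not pass the filter.

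Within the IL-1 family beyond the 10 genes, none of 7 tested ligands, receptors and inhibitors was called by edgeR or DESeq2, 1 was lower at an unadjusted edgeR p under 0.05, as were 10.9% of all genes, and their median was −0.02. The receptor gene Il1r1 was at 0.30 (SE 0.16) and Il18bp, which encodes the soluble inhibitor of interleukin-18, at −0.09 (SE 0.14). Il18rap, a subunit of the interleukin-18 receptor, stood at 1.82, 1.37 and 1.34 CPM in ISO replicates 1 to 3, against 2.86, 3.0 and 3.41 CPM in saline replicates 1 to 3. Its groups did not overlap, ISO lying below, yet it was not called (−1.03, SE 0.29, edgeR adjusted p = 0.0887). Of 9 members under the filter, Il36a, Il36g and Il36rn had no count in any library.

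Signalling downstream of the receptors showed no called gene by edgeR among 21 tested members of the MyD88 and NF-kB list, whose median was 0.02. An unadjusted p under 0.05 was reached by 3 higher and 3 lower members, where 12% and 10.9% of all genes reached it. DESeq2 called 1 member, the kinase gene Chuk, as lower, where it called 4.74% of all genes lower. The most abundant members, Tab2 and Irak1, were at −0.06 (SE 0.12) and −0.01 (SE 0.09). Necroptosis partners and regulators likewise held no called gene among 20 tested by either tool, with 1 higher and 2 lower at an unadjusted edgeR p under 0.05 and a median of 0.00, the most abundant being Ppm1b at −0.18 (SE 0.12) and Rbck1 at 0.13 (SE 0.10).

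Toll-like receptors and priming cytokines had the highest median of these lists, 0.89, with none of 11 tested members called by edgeR and 5 higher at an unadjusted p under 0.05, as were 12% of all genes. DESeq2 called 4, Tlr2, Tlr7, Tlr8 and Tlr9, all higher in ISO, where it called 5.46% of all genes higher. Tlr7, a sensor of single-stranded RNA, stood at 13.5, 10.5 and 22.7 CPM in ISO replicates 1 to 3, against 4.7, 9.5 and 4.99 CPM in saline replicates 1 to 3. Tlr2, Tlr8 and Tlr9 were also highest in ISO replicate 3, at 22, 17.3 and 4.08 CPM. In ISO replicates 1 and 2, Tlr2 was at 8.46 and 5.55, Tlr8 at 5.83 and 5.99, and Tlr9 at 0.94 and 1.62 CPM. The groups overlapped for Tlr2. The 2 most abundant members, Tlr3 and Cd14, were at −0.07 (SE 0.22) and 0.89 (SE 0.35, edgeR adjusted p = 0.182). Tnf and Il6, classic products of priming, stayed under the filter, with at most 0.125 CPM in any library, below the 0.175 to 0.204 CPM that 3 reads correspond to.

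**Figure D4:**
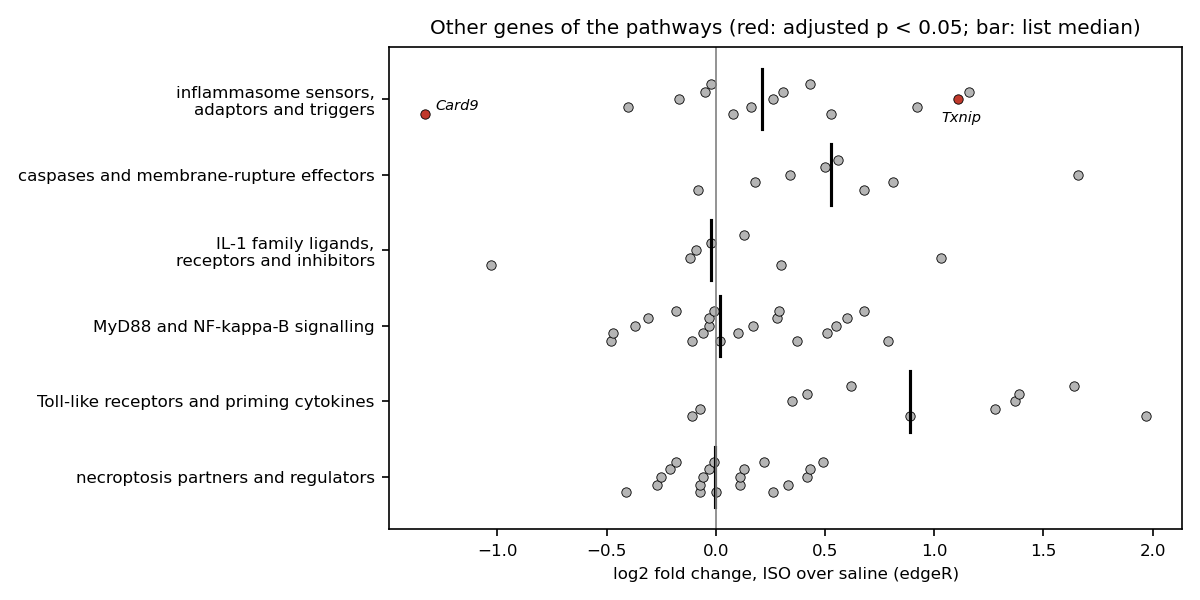
Log2 fold change of ISO over saline (x axis) for every tested gene of 6 lists of related genes (y axis), with called genes in red and the median of each list as a bar. Txnip and Card9 are the called genes, and the Toll-like receptor list has the highest median at 0.89.

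Markers of some cell types differed between the groups and those of others did not, and their part in the values above was not tested. In whole tissue, a change in the number of cells of a type and a change of RNA per cell cannot be told apart. The summed level of 16 macrophage and monocyte markers was 980.4, 904 and 2031 CPM in ISO replicates 1 to 3, against 430.4, 544.2 and 448.7 CPM in saline replicates 1 to 3. Of these, 5 were called higher and 0 lower, where 1.47% of all genes were called higher. The called number was 0 without any 1 saline library, 1 without ISO replicate 1, and 13 and 6 without ISO replicates 2 and 3. The most abundant macrophage markers were Lyz2 at 2.44 (SE 0.46, edgeR adjusted p = 0.0334) and Csf1r at 1.17 (SE 0.25, edgeR adjusted p = 0.0495). ISO replicate 3, the library in which all 10 genes lay above saline, had the highest macrophage sum, of which Lyz2 made up 1030 CPM. In ISO replicate 2 the macrophage sum also exceeded that of every saline library, while 2 of 10 genes lay above the highest saline library.

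Of 12 fibroblast markers tested, 4 were called higher and 0 lower, where 1.47% of all genes were called higher. Their sum was 10500 to 21740 CPM in ISO and 5237 to 5758 CPM in saline, with the maximum again in ISO replicate 3. Col1a1 and Col3a1 were the largest contributors in that library, at 6360 and 8160 CPM. The called number was 0 without ISO replicate 1 or any 1 saline library, and 8 and 4 without ISO replicates 2 and 3. Neutrophil markers were near absent, at 1.622 to 7.001 CPM summed over 10 genes in ISO and 2.779 to 7.219 CPM in saline, with Mpo at 0 in all ISO libraries. B cell markers summed to at most 1.503 CPM in ISO and 1.453 CPM in saline. Mast cells, which carry ST2, had marker sums of 54.2 to 60.33 CPM in ISO and 55.91 to 64.49 CPM in saline, with none of 8 tested markers called. Endothelial markers summed to 1042 to 1523 CPM in ISO and 1104 to 1255 CPM in saline, with none of 8 called and Cldn5 at 0 in every library. The maximum was in ISO replicate 1, where Vwf made up 709 CPM. At an unadjusted edgeR p under 0.05, 1 was lower and 0 higher, where 10.9% of all genes were lower. It was Kdr, whose ISO libraries all lay below the saline libraries (−0.56, SE 0.19, edgeR adjusted p = 0.13). T and NK cell markers summed to 50.14 to 102 CPM in ISO and 43.79 to 49.58 CPM in saline, with none of 9 called, and Cd4, the largest contributor, is also expressed by rat macrophages.

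Among 11 cardiomyocyte markers 1 was called lower and none higher, where 1.50% of all genes were called lower. It was Actc1, the cardiac alpha-actin gene, at 6490, 7500 and 6430 CPM in ISO replicates 1 to 3, against 16100, 14800 and 15500 CPM in saline replicates 1 to 3 (−1.18, SE 0.16, edgeR adjusted p = 0.0161). The median over the 11 was −0.21. At an unadjusted edgeR p under 0.05, 3 were lower and 1 higher, where 10.9% of all genes were lower and 12% higher. The higher one was Myh7, at 3290 to 6790 CPM in ISO and 2190 to 2440 CPM in saline (1.01, SE 0.27, edgeR adjusted p = 0.0791). Red cell markers summed to 1605 to 5041 CPM in ISO and 4323 to 10780 CPM in saline, with a median of −0.85 over 7 tested genes. Hemgn, a gene of red cell precursors, was called lower (−2.57, SE 0.47, edgeR adjusted p = 0.0327). It rested on few reads, 4 to 6 per ISO library (0.233 to 0.374 CPM) and 18 to 35 per saline library (1.14 to 2.38 CPM). Neither Actc1 nor Hemgn was called without ISO replicate 1 or without any 1 saline library, nor Hemgn without ISO replicate 3. In the fits that lost the call, Actc1 was at −1.22 to −1.16 and Hemgn at −2.80 to −2.28 (edgeR adjusted p of 0.0606 to 0.0972 and of 0.0754 to 0.126). Smooth muscle and pericyte markers summed to 1002 to 1138 CPM in ISO and 982.3 to 1087 CPM in saline, with none of 8 called. Of the atrial markers, Nppa, the gene of atrial natriuretic peptide, which stressed ventricles also make, was called higher, at 1120, 1490 and 901 CPM in ISO replicates 1 to 3, against 42.8, 217 and 72.2 CPM in saline replicates 1 to 3 (3.40, SE 0.56, edgeR adjusted p = 0.0244). It was not called without ISO replicate 1, saline replicate 1 or saline replicate 3 (3.42, 3.01 and 3.17, edgeR adjusted p = 0.0749, 0.068 and 0.121).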

How the data were processed

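RNA from hearts of 3 ISO-treated and 3 saline-treated rats was sequenced by the authors as paired reads of 150.0 bases, aligned with HISAT2 to the rat genome, then counted per gene by featureCounts, per the labels' series description. What was deposited is a table of raw whole-number counts, without normalisation. No source used here gives tool versions, the annotation release or the strand setting. The submitters' processing notes name the mouse build mm10, while the rows carry rat Ensembl identifiers. The 1006 of 33889 rows without a gene name, 0.981% to 1.32% of the counts of a library, were left out. Samples were grouped by their titles.

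Testing used edgeR 4.0.16 (R 4.3.3, TMM scaling, default filter on low counts, quasi-likelihood F test, Benjamini-Hochberg adjustment over 13766 genes). The standard error is the size of the log2 fold change over the square root of F, and intervals are 95%. Profiles of log2 CPM used a prior count of 2. Alternatives were DESeq2 1.42.0, voom from limma 3.58.1, other scalings and filters, a stricter adjusted p of 0.01 and the rule stated by the series. Further ones were a table without the protein-coding mitochondrial genes, a block for the replicate number, and fits that each omit 1 library. The tests were checked on simulated counts. There 7 of 137 edgeR calls, 46 of 196 DESeq2 calls and 7 of 135 voom calls were false. Of 50 genes set 1.5-fold apart, edgeR called 3, DESeq2 16 and voom 2. Of 50 genes set 2-fold apart, they called 32, 38 and 31. Genes set apart were drawn only from those above a low mean level, and the spread was the one edgeR estimated. These rates need not hold for genes with few reads or where another share of genes differs. No 2 libraries agreed within sampling noise, so none was treated as a duplicate. Intervals cover counting error and the spread between rats.

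The 10 genes and the gene lists were chosen with earlier results of these data known. Named genes were the 10, then from each list of related genes the called members, or the 2 most abundant where none was called, from each marker list the abundant or undetected markers, and the 3 profiles nearest to the gene with the smallest p. Others are marked as named after their values were seen. Markers outside this rule, such as Hemgn, Myh7 and Kdr, were also named after their values were seen. One gene that this rule names is not reported here.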

Additional observations from a re-analysis of the deposited data

How the results depend on the processing

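With all libraries 409 genes were called, 1 of the 10 genes (Gsdmd) and 2 genes of the related lists. With other scalings, both other filters and protein-coding mitochondrial genes left out, Gsdmd was still called, at 0.76 to 0.88, as it was by DESeq2. The counts over all genes, the 10 genes and the related lists were 1405, 1 and 10 by DESeq2, 329, 0 and 2 by voom, 11, 0 and 0 at an adjusted p under 0.01, and 1837, 3 and 15 by the series' own rule. With 1 library left out, they ranged from 12 to 838, from 0 to 1 and from 0 to 5. The replicate number as a block gave 28, 0 and 1, with Gsdmd at 0.76 (edgeR adjusted p = 0.118). The numbers were not shown to pair the rats: deviations of libraries with the same number correlated at 0.0874, −0.0989 and 0.0176, and only replicate 1 correlated best with its own number. The cause of these moves was not tested.

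Signs turned in genes near 0. Il1rl1 was −8e-05 with DESeq2's size factors and −2.8e-05 by DESeq2 and the series' own rule. It was −0.01 without a filter, −0.01 without protein-coding mitochondrial genes, −0.07 by voom and −0.06 with the block. It was −0.38 without ISO replicate 3 and −0.17 without saline replicate 1. Over the fits with 1 library left out it ranged from −0.38 to 0.28, Casp1 from −0.38 to 0.02, Il1b from −0.21 to 0.43 and Mlkl from −0.06 to 0.16. Casp1 was 0.0027 without scaling, 0.01 without ISO replicate 2 and 0.02 without saline replicate 2. Without ISO replicate 3, Il1b was −0.21 and Mlkl −0.06. No sign turned for Gsdmd, Nlrp3, Pycard, Il18, Il33 or Ripk3 under any of these 16 settings. Without scaling, the median over all genes was 0.13, against 0.02. Il1b, Il18 and Il1rl1 had the fewest reads of the 10 genes, at 17 to 69 per library, with standard errors of 0.41, 0.38 and 0.39.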
